A study of Mus musculus with 4 samples.

Results

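The 34 genes described here encode the enzymes that build and recycle purine, pyrimidine and deoxyribonucleotides. They were taken as the rows of the deposited table whose gene symbol was on a list of such enzymes, and all 34 were found among its 20555 genes. Cells make purine nucleotides by assembling the ring on phosphoribosyl pyrophosphate (PRPP) up to inosine monophosphate (IMP), which is then turned into AMP or GMP. The pyrimidine ring is closed first and then joined to PRPP, giving UMP and from it CTP. Salvage enzymes recover ready-made bases and nucleosides, and ribonucleotide reductase turns ribonucleotides into the deoxyribonucleotides used for DNA, with dTTP made by a branch of its own. Genes of these routes are well-known targets of the transcription factor MYC, and ribonucleotide reductase and thymidylate synthase are made mainly by cells in S phase, also in tumours.

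The RNA came from bulk mammary tumours of mice, with 2 MYC-PyMT libraries and 2 Control-PyMT libraries. Both groups carry PyMT, the polyomavirus middle T antigen, which is the driver of these tumours. MYC-PyMT is labelled S100a8-creRosa26-LSL-MYCPyMT, that is, Cre under S100a8, a gene of neutrophils, with a MYC allele at Rosa26 that Cre switches on. Control-PyMT is labelled PyMT, and the promoter driving PyMT, the ages of the mice and whether tumours were pooled are not given in the labels. The transgene is therefore set to act in S100a8-expressing cells, whereas the RNA is that of the whole tumour. In such bulk samples a change in the share of a cell type and a change in RNA per cell cannot be told apart. Nothing in the labels states that replicates are separate mice, and the spread behind the p-values may therefore not be a spread between mice.

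Depth was 31783846 to 34190913 reads a library, taking the smallest value above 0 in each column as 1 read. Mouse Myc was at 3215 and 2815 scaled counts in MYC-PyMT, against 1832 and 2819.9 in Control-PyMT, and the groups overlapped (log2 change 0.40, SE 0.23, limma adjusted p = 0.172). The species of the MYC transgene is not given in the labels, so its own reads may not be in this value. The epithelial origin of the tissue was checked on 6 markers, of which Krt8, a keratin, was at 22210.5 and 28747 scaled counts in MYC-PyMT and 28743 and 27667 in Control-PyMT. Summed over the 6, levels were 89146 and 91956 in MYC-PyMT, against 126033 and 117707 in Control-PyMT, and 3 of the 6 were lower in MYC-PyMT.

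Values are scaled counts, which are read counts divided by 1 factor per library and not by gene length. Changes are differences of log2(scaled count + 1), MYC-PyMT minus Control-PyMT, tested with limma over 16725 genes. A gene is called at a Benjamini-Hochberg adjusted p under 0.05. All 34 genes passed the level filter, 10 or more scaled counts in 2 libraries.

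Of the 34 genes, 28 rose in MYC-PyMT and none fell, with a median log2 change of 1.30, a 2.47-fold higher level. No gene of the 34 with a negative change had an unadjusted limma p under 0.05. Among all genes tested, 47.9% were called, 23.3% as higher and 24.6% as lower, and the median log2 change was -0.02. At least a 2-fold rise was called for 25 of the 34, against 14.4% of all genes. With each library's trend with transcript length removed, the rises of Dhodh, Hprt, Dtymk and Guk1 were under 2-fold and that of Gmps was above it. In 31 of the 34 both MYC-PyMT libraries lay above both Control-PyMT libraries, an ordering found in 37.0% of all genes, and in 2 both lay below, against 38.7%. The 6 genes that did not pass were Adss, Adssl1, Ctps2, Dck, Rrm2b and Cmpk1.

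**Figure D1:**
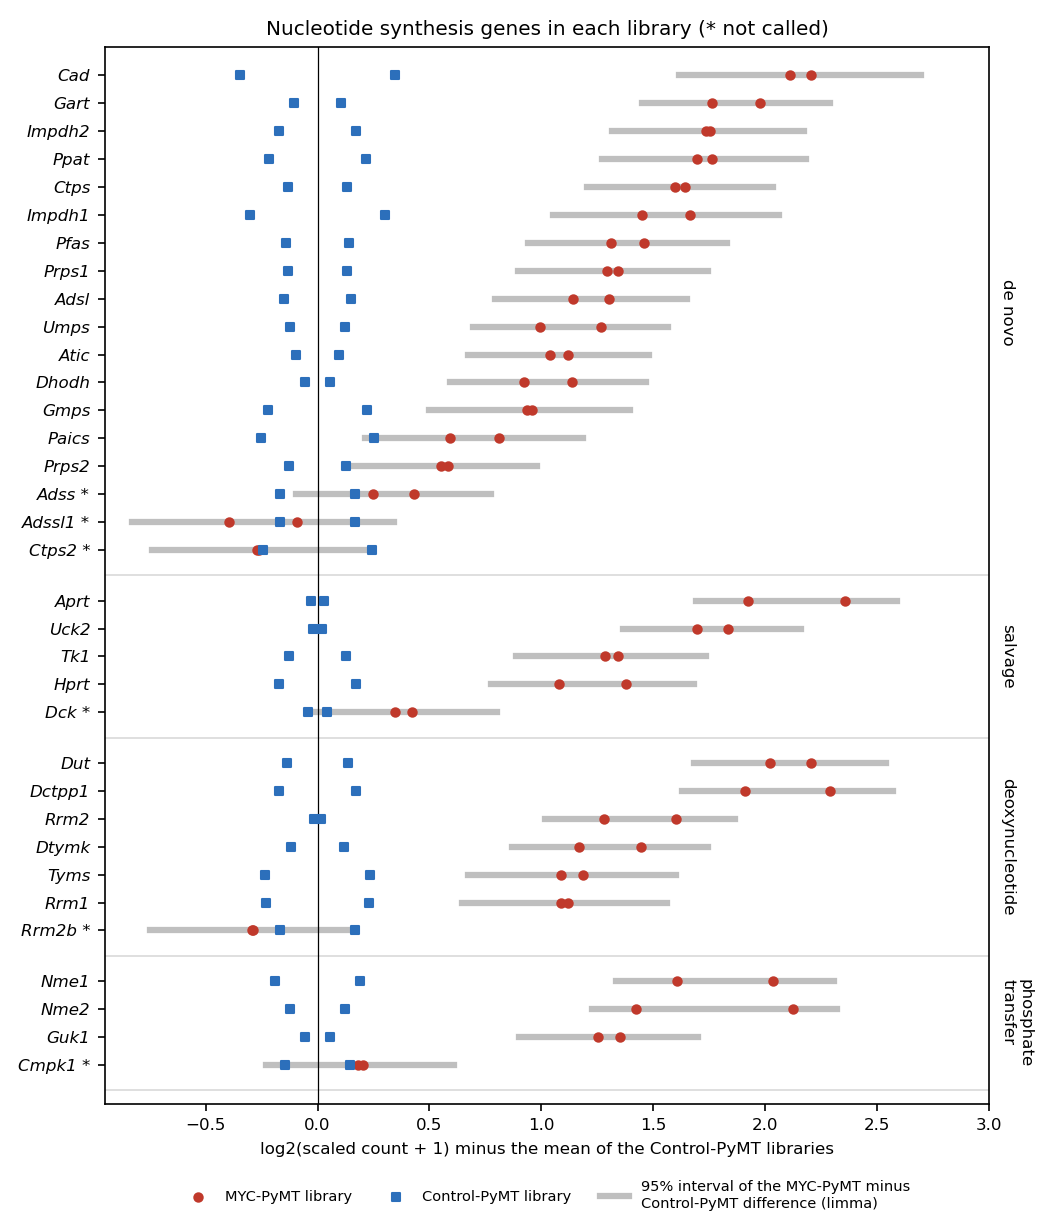
Each row is 1 gene, with the log2(scaled count + 1) of every library set relative to the mean of the Control-PyMT libraries (MYC-PyMT circles, Control-PyMT squares) and the 95% interval of the difference from limma as a grey bar. The circles lie to the right of the squares in 31 rows, and the 6 genes marked with an asterisk have intervals that include 0.

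The de novo, salvage and deoxynucleotide groups did not separate by how many of their genes rose. In the de novo routes 15 of 18 genes rose (median log2 change 1.18), in salvage 4 of 5 (1.31) and in deoxynucleotide synthesis 6 of 7 (1.31). Of the kinases that pass on phosphate, 3 of 4 rose (1.54). The geometric mean of the de novo genes was 3638 and 3455 scaled counts in the MYC-PyMT libraries, against 1722 and 1578 in Control-PyMT. For the salvage genes it was 4339 and 4702 in MYC-PyMT, against 1849 and 1660.3 in Control-PyMT. For the deoxynucleotide genes it was 3679 and 3918 in MYC-PyMT, against 1743 and 1417 in Control-PyMT. The groups differ in size, and the order of their medians turned round when each library's trend with transcript length was removed, the de novo median then being 1.30 and the salvage median 1.06. Changes within a group spread further than the medians of the groups, from -0.26 to 2.16 in de novo, 0.39 to 2.14 in salvage, -0.29 to 2.11 in deoxynucleotide and 0.19 to 1.82 in phosphate transfer genes.

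Genes for the supply of PRPP and the assembly of the purine ring rose at every step measured. Prps1 and Prps2 encode the synthetases that make PRPP. Prps1 had 2788 and 2880.3 scaled counts in MYC-PyMT, against 1246 and 1035 in Control-PyMT (log2 change 1.32, SE 0.19, limma adjusted p = 0.000432). Prps2 had 3366 and 3441 in MYC-PyMT, against 2513 and 2103 in Control-PyMT, a smaller rise (0.57, SE 0.19, limma adjusted p = 0.0296). Its groups did not overlap, but the Prps2 call ended when MYC-PyMT replicate 1 was left out (limma adjusted p = 0.142), likewise MYC-PyMT replicate 2 (0.180) and Control-PyMT replicate 2 (0.0814). It also ended with upper-quartile scaling (0.0570) and with no variance trend (0.0840).

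All 6 enzymes from PRPP to IMP rose. Ppat (ENSMUSG00000029246.14, chromosome 5, 76913249 to 76951578, GRCm38), the amidotransferase of the first committed step, had 3874 and 3706 scaled counts in MYC-PyMT, against 1329 and 984 in Control-PyMT (log2 change 1.73, SE 0.20, limma adjusted p = 0.000147). Gart (ENSMUSG00000022962.14, chromosome 16, 91621186 to 91646952), which carries several of the early activities on a single protein, had 6218 and 5365 in MYC-PyMT, against 1699 and 1468 in Control-PyMT (1.87, SE 0.19, limma adjusted p = 6.23e-05). In both genes the lower MYC-PyMT library was above the higher Control-PyMT library by more than the gap between replicates. Pfas, which adds a nitrogen on the way to the ring, rose by a log2 change of 1.38, Adsl, a lyase used both here and in the AMP branch, by 1.22, and Atic, which closes the ring, by 1.08. Paics (ENSMUSG00000029247.17, chromosome 5, 76951307 to 76967509), a carboxylase and synthetase of the middle steps, changed least, with 11789 and 10129 scaled counts in MYC-PyMT, against 8022 and 5642 in Control-PyMT (0.70, SE 0.22, limma adjusted p = 0.0237). The Paics call ended when MYC-PyMT replicate 1 was left out (log2 change 0.59, limma adjusted p = 0.153), likewise Control-PyMT replicate 2 (0.45, 0.120), and with no variance trend (0.0811). Paics was also the member with the highest level per length in Control-PyMT, 2753 scaled counts per kb, against 290.4 for Ppat. Gm15964, antisense to Gart with 1014 exon bases shared, stood at 195 and 245 in MYC-PyMT, against 73.9 and 58.6 in Control-PyMT. Whether reads were counted by strand is not given in the sources used here.

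After IMP, all 3 genes of the GMP branch rose, while neither adenylosuccinate synthetase gene of the AMP branch passed. Adsl, which completes the AMP branch and also acts in the ring's assembly, rose as given above. Impdh2 (ENSMUSG00000062867.13, chromosome 9, 108560286 to 108565584), IMP dehydrogenase, the rate-limiting enzyme of guanine nucleotide synthesis, had 9948 and 9836 scaled counts in MYC-PyMT, against 3331 and 2620.3 in Control-PyMT (log2 change 1.74, SE 0.19, limma adjusted p = 9.95e-05). Its isozyme gene Impdh1 had 6058 and 5223 in MYC-PyMT, against 1554 and 2354 in Control-PyMT (1.56, SE 0.23, limma adjusted p = 0.000455), with a wide gap between the Control-PyMT libraries. Gmps, which aminates xanthosine monophosphate to GMP, had 4555 and 4635 in MYC-PyMT, against 2775 and 2048 in Control-PyMT (0.95, SE 0.20, limma adjusted p = 0.00371). Adss (ENSMUSG00000015961.8, chromosome 1, 177762962 to 177796511), the adenylosuccinate synthetase of most tissues, had 5379 and 6095 in MYC-PyMT, against 5081 and 4034 in Control-PyMT. The MYC-PyMT libraries of Adss lay above the others by less than the gap between the Control-PyMT libraries, and its log2 change of 0.34 had a 95% interval of -0.10 to 0.77 (limma adjusted p = 0.177). Adssl1 (ENSMUSG00000011148.13, chromosome 12, 112620045 to 112641360), the isozyme known from muscle, was low, with 281 and 227 in MYC-PyMT and 267 and 336 in Control-PyMT, and the groups overlapped (-0.24, 95% interval -0.83 to 0.34, adjusted p = 0.468). Skeletal muscle markers varied by library beside it, 2 of 6 higher in MYC-PyMT, summing to 830.3 and 2222 in MYC-PyMT, against 170.2 and 1095 in Control-PyMT, and their part in the Adssl1 value was not tested.

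The Impdh2 to Adss ratio, per transcript length, was 2.76 and 2.41 in the MYC-PyMT libraries, against 0.978 and 0.969 in Control-PyMT. The ratio was higher in both MYC-PyMT libraries by a log2 difference of 1.40. An exact two-sided permutation test of 2 libraries against 2 gave p = 0.333, the smallest such a design allows. This ratio was chosen after its values were seen.

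Genes of pyrimidine synthesis rose from its entry to UMP. Cad (ENSMUSG00000013629.16, chromosome 5, 31054780 to 31078479), a fused enzyme of the opening steps and a long-studied MYC target, had 3214 and 3011 scaled counts in MYC-PyMT, against 548 and 888 in Control-PyMT (log2 change 2.16, SE 0.24, limma adjusted p = 0.000111). This was a 4.46-fold rise, the largest fitted change of the 34 with all libraries in. Without Control-PyMT replicate 1 its log2 change was 1.81, below Dctpp1 (2.27), Dut (2.25) and Aprt (2.17), among others. Without MYC-PyMT replicate 1 it was 2.11, below Aprt (2.36), Dctpp1 (2.29), Dut (2.20) and Nme2 (2.12). Cad also had the lowest level per length of the 34 in Control-PyMT, 101 scaled counts per kb, and 436 in MYC-PyMT. Dhodh, the mitochondrial dihydroorotate dehydrogenase, had 1549 and 1798 in MYC-PyMT, against 785 and 849 in Control-PyMT (1.03, SE 0.20, limma adjusted p = 0.00202). Umps, which turns orotate into UMP, had 4397 and 3636 in MYC-PyMT, against 1991 and 1676 in Control-PyMT (1.13, SE 0.19, limma adjusted p = 0.00119). Both rose to about the same degree, with no overlap between groups.

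Of the CTP synthetase genes, whose enzymes aminate UTP, Ctps rose and Ctps2 did not pass. Ctps (ENSMUSG00000028633.7, chromosome 4, 120539868 to 120570276) had 5049 and 4889 scaled counts in MYC-PyMT, against 1771 and 1475 in Control-PyMT (log2 change 1.62, SE 0.19, limma adjusted p = 0.000125). Ctps2 (ENSMUSG00000031360.14, chromosome X, 162901238 to 163032508) had 1549.8 and 1541 in MYC-PyMT and 2197 and 1567 in Control-PyMT (-0.26, 95% interval -0.74 to 0.21, limma adjusted p = 0.330). Both MYC-PyMT values of Ctps2 were just under the lower Control-PyMT value.

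Base salvage and uridine salvage genes rose. Aprt (ENSMUSG00000006589.7, chromosome 8, 122574635 to 122576909), which recovers adenine, had 6426 and 8685 scaled counts in MYC-PyMT, against 1731 and 1661 in Control-PyMT (log2 change 2.14, SE 0.20, limma adjusted p = 4.52e-05). Hprt, which recovers hypoxanthine and guanine, had 5349.9 and 6584 in MYC-PyMT, against 2850.5 and 2247 in Control-PyMT (1.23, SE 0.20, limma adjusted p = 0.000934). Uck2, a uridine and cytidine kinase, had 10342 and 9404 in MYC-PyMT, against 2947 and 2866 in Control-PyMT (1.76, SE 0.18, limma adjusted p = 6.39e-05). The Control-PyMT libraries of Aprt and Uck2 lay close together, and the MYC-PyMT libraries of Aprt and Hprt were further apart, replicate 2 being higher in both.

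Of the 2 deoxynucleoside kinases among the 34, Tk1 rose and Dck did not pass. Tk1, the cytosolic thymidine kinase of S phase, had 2606 and 2718 scaled counts in MYC-PyMT, against 1169 and 982 in Control-PyMT (log2 change 1.31, SE 0.19, limma adjusted p = 0.000442). Dck (ENSMUSG00000029366.10, chromosome 5, 88764996 to 88783281), which phosphorylates deoxycytidine and also purine deoxynucleosides and is abundant in lymphoid tissue, had 1659.5 and 1573 in MYC-PyMT and 1273 and 1202 in Control-PyMT. The groups of Dck did not overlap, but its log2 change of 0.39 did not pass (95% interval -0.03 to 0.80, limma adjusted p = 0.113). T and NK cell markers, 7 of 8 lower in MYC-PyMT, summed to 159 and 167 in MYC-PyMT, against 438 and 426 in Control-PyMT. Cd4 was the marker that rose, and without it the other 7 summed to 29.2 and 26.4 in MYC-PyMT, against 391.8 and 386.5 in Control-PyMT. Their part in the Dck value was not tested.

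Ribonucleotide reductase rose in its large subunit and in 1 of its 2 small subunits. Rrm1, the large subunit, had 8954 and 9149 scaled counts in MYC-PyMT, against 4947 and 3586 in Control-PyMT (log2 change 1.10, SE 0.20, limma adjusted p = 0.00178). Rrm2 (ENSMUSG00000020649.11, chromosome 12, 24708241 to 24714146), the small subunit of S phase, had 6216 and 4976 in MYC-PyMT, against 2031 and 2069.9 in Control-PyMT (1.44, SE 0.19, limma adjusted p = 0.000261). Rrm2b (ENSMUSG00000022292.15, chromosome 15, 37923952 to 37961318), the small subunit induced by p53 and used outside S phase, had 927 and 922 in MYC-PyMT and 1271 and 1006 in Control-PyMT. Both MYC-PyMT values of Rrm2b lay below both Control-PyMT values, and the change did not pass (-0.29, 95% interval -0.75 to 0.17, limma adjusted p = 0.269).

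All 3 genes of the thymidylate branch rose. Dut (ENSMUSG00000027203.15, chromosome 2, 125247190 to 125258608), which hydrolyses dUTP and so yields dUMP, had 4359 and 4941 scaled counts in MYC-PyMT, against 1178 and 978 in Control-PyMT (log2 change 2.11, SE 0.19, limma adjusted p = 3.82e-05). Tyms, thymidylate synthase, had 3041 and 3256 in MYC-PyMT, against 1685 and 1215 in Control-PyMT (1.14, SE 0.21, limma adjusted p = 0.00169). Dtymk, thymidylate kinase, had 3020.1 and 3654 in MYC-PyMT, against 1457 and 1239 in Control-PyMT (1.31, SE 0.20, limma adjusted p = 0.000542). The Dut change was larger than those of Tyms and Dtymk, a difference not tested. Dctpp1 (ENSMUSG00000042462.4, chromosome 7, 127256959 to 127260709), a pyrophosphatase that removes dCTP and modified forms of it, had 4413 and 5744 in MYC-PyMT, against 1322 and 1045 in Control-PyMT (2.10, SE 0.21, limma adjusted p = 6.25e-05). Its transcript is the shortest of the 34, and with the transcript length trend removed its fold change was 2.84 in place of 4.28 and the gene was still called. Other short transcripts also rose less under this setting, such as Aprt (3.14 in place of 4.40) and Dtymk (1.86 in place of 2.47). Long transcripts such as Cad rose more (5.74 in place of 4.46).

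The kinases that pass on phosphate rose except Cmpk1. Cmpk1 (ENSMUSG00000028719.8, chromosome 4, 114959336 to 114987241), the UMP and CMP kinase, had 6626 and 6527 scaled counts in MYC-PyMT and 6369.6 and 5215 in Control-PyMT (log2 change 0.19, 95% interval -0.23 to 0.61, limma adjusted p = 0.428). Guk1, the GMP kinase, had 4135 and 4419.9 in MYC-PyMT, against 1805 and 1667 in Control-PyMT (1.30, SE 0.18, limma adjusted p = 0.000335). Both MYC-PyMT libraries of Cmpk1 lay above the others by less than the gap between its Control-PyMT libraries, and those of Guk1 lay far above. Nme1 (ENSMUSG00000037601.11, chromosome 11, 93956979 to 93968521) and Nme2 (ENSMUSG00000020857.11, chromosome 11, 93949814 to 93956259), adjoining genes for nucleoside diphosphate kinases, rose by 1.82 (SE 0.22, limma adjusted p = 0.000160) and 1.77 (SE 0.24, 0.000339). Nme1 had 7956 and 10727 scaled counts in MYC-PyMT, against 2985 and 2291 in Control-PyMT. Nme2 had 3203 and 5212 in MYC-PyMT, against 1097 and 1300.4 in Control-PyMT. In both genes MYC-PyMT replicate 2 was well above replicate 1. Their coding sequences are alike and a readthrough gene, Gm20390, shares exon bases with each, so reads may be split between them and the separate values are uncertain.

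**Figure D2:**
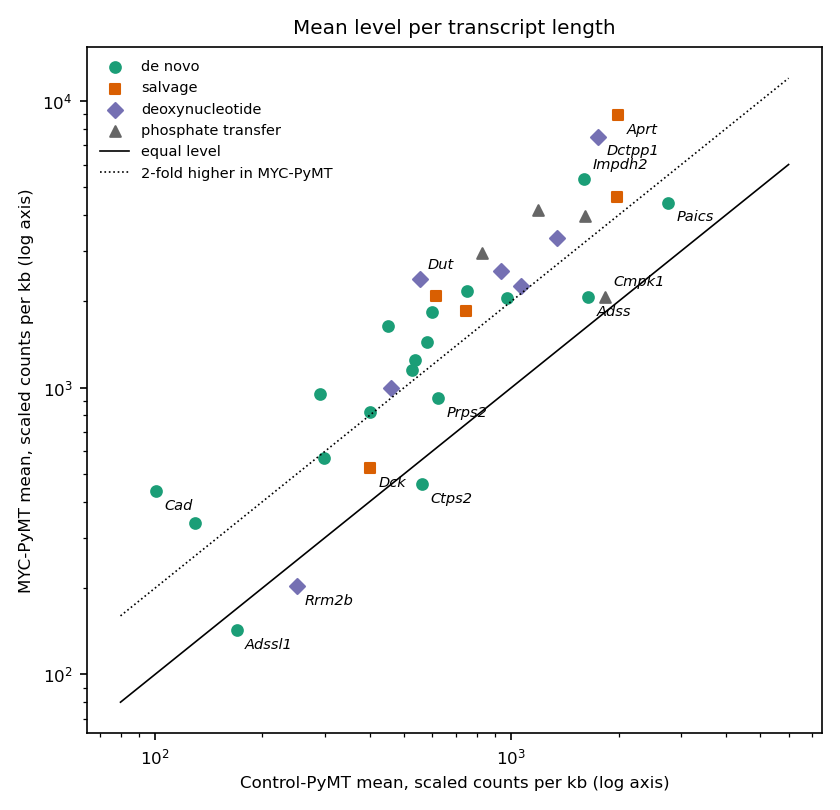
The mean level of each of the 34 genes in scaled counts per kb of transcript, MYC-PyMT on the vertical and Control-PyMT on the horizontal axis, both log axes, with lines of equal and of 2-fold higher level. Genes above the dotted line are found over the range of levels, from Cad at 101 to Aprt at 1997 scaled counts per kb in Control-PyMT, while Paics, the highest there at 2753, Prps2, Gmps, Dck, Adss and Cmpk1 lie between the lines and Adssl1, Ctps2 and Rrm2b under the solid one.

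Several steps are served by a pair of genes, and the balance within them was compared. Levels were compared per kb of transcript. The Ctps to Ctps2 ratio was 4.04 and 3.93 in MYC-PyMT, against 0.999 and 1.17 in Control-PyMT. The Rrm2 to Rrm2b ratio was 13.9 and 11.2 in MYC-PyMT, against 3.32 and 4.28 in Control-PyMT. The Prps2 to Prps1 ratio was 0.641 and 0.635 in MYC-PyMT, against 1.07 and 1.08 in Control-PyMT. In these 3 pairs the 2 groups of libraries did not overlap and lay further apart than replicates. Across 14 alternative settings the log2 difference of the ratio ran from 1.77 to 1.99 for Ctps to Ctps2 and 1.46 to 1.91 for Rrm2 to Rrm2b. For Prps2 to Prps1 it ran from -0.76 to -0.51, and for Nme1 to Nme2, given below, from -0.27 to 0.53. The Adssl1 to Adss ratio was 0.0814 and 0.0582 in MYC-PyMT, against 0.0818 and 0.130 in Control-PyMT, groups that hardly separate. The Impdh2 to Impdh1 ratio was 2.30 and 2.64 in MYC-PyMT and 3.0 and 1.56 in Control-PyMT, and the Nme1 to Nme2 ratio 0.790 and 0.655 in MYC-PyMT and 0.866 and 0.560 in Control-PyMT, and in both pairs the groups overlapped. An exact two-sided permutation test gave p = 0.333 for the 4 pairs whose groups did not overlap, the smallest that 2 libraries against 2 allow, and p = 1 for the other pairs. Over the 8 ratios tested, which include those of Impdh2 to Adss and Ppat to Paics, the Benjamini-Hochberg adjusted p was 0.444 where p was 0.333.

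**Figure D3:**
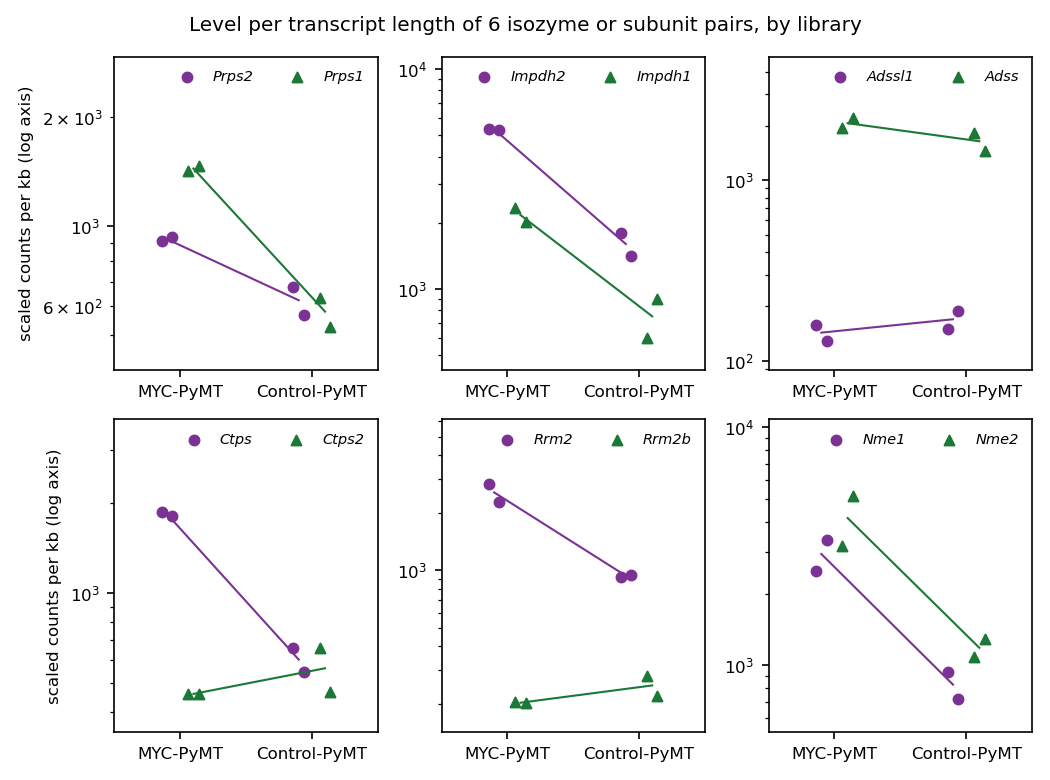
Level of each gene of 6 pairs in scaled counts per kb of transcript (log axis), with 1 point for each library, MYC-PyMT at left and Control-PyMT at right, and a line joining the group means. Ctps and Rrm2 rise towards MYC-PyMT while Ctps2 and Rrm2b do not, and Impdh1 and Impdh2 as well as Nme1 and Nme2 run nearly parallel.

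Ppat and Paics lie head to head on chromosome 5, with RefSeq starts 276 bases apart (Paics at 76951302 on the plus strand, Ppat at 76951578 on the minus strand) and 272 exon bases in common on opposite strands. The Ppat to Paics ratio per transcript length was 0.205 and 0.228 in MYC-PyMT, against 0.103 and 0.109 in Control-PyMT, a log2 difference of 1.03. The pair was chosen after its values were seen, and the exact permutation p was 0.333, the smallest possible. Without a stated strand setting, reads of the shared bases may be counted for neither or either gene.

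MYC binds the E-box CACGTG, which is its own reverse complement. RefSeq promoter windows (GRCm38.p6, 250 bases before to 50 after a start) were matched for 31 of the 34 genes. Of the 31, 6 held CACGTG (19.4%), against 8.09% of the 27025 genes in the table of windows. Those 27025 were not limited to the genes tested for expression. The 6 genes were Atic, Dtymk, Impdh2, Nme1, Paics and Tyms, with log2 changes of 1.08, 1.31, 1.74, 1.82, 0.70 and 1.14. They include the small rise of Paics, and no match was found in the windows of Cad, Aprt and Dut, which were among the genes with the largest rises. The part of the E-box in any of these changes was not tested. The stretches are shown 5′ to 3′ on the strand of the gene, with the E-box in capitals.
Tyms: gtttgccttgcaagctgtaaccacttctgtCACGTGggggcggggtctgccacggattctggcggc
Dtymk: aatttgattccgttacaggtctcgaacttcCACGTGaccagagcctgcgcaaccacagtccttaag
Impdh2: gagctcgataagCACGTGgttacccagctc
Nme1: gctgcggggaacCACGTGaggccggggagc
Paics: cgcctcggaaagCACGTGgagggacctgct
Atic: ggacctcggggtCACGTGg
In the Tyms stretch (chr5:30073651-30073716, minus strand) the E-box begins 61 bases before the start and in the Dtymk stretch (chr1:93802047-93802112, minus strand) 148 bases before, both outside annotated genes in GENCODE. The Impdh2 stretch (chr9:108560314-108560343, plus strand) and the Nme1 stretch (chr11:93968273-93968302, minus strand) overlap annotated UTR exons of those genes, with the E-box 110 and 18 bases before the RefSeq start. Another Nme1 window, of a start within the gene, held a further E-box 29 bases before that start, which is not shown. The Paics stretch (chr5:76951087-76951116, plus strand), with the E-box 203 bases before its start, overlaps an exon of Ppat. In the Atic stretch (chr1:71557137-71557155, plus strand) the E-box begins 7 bases before the RefSeq start, and the stretch overlaps an annotated Atic UTR.

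E2F factors, which switch on S phase genes, bind sites such as TTTGGCGC, TTTGCCGC, TTTCGCGC and TTTCCCGC. Searched on both strands, these were in the windows of 2 of the 31 genes, Ppat and Prps2 (6.45%), against 2.61% of the genes in the table of windows. The log2 change of Ppat was 1.73 and that of Prps2 0.57, and the part of these words in either change was not tested. Ppat holds the reverse complement of TTTCCCGC at 2 places, shown in capitals.
Ppat: gagcagaccgcGCGGGAAAaaagggcagtg
Ppat: aggatcagaggGCGGGAAAgggaggtgcaa
In the first stretch (chr5:76951771-76951800, minus strand) the word begins 211 bases and in the other (chr5:76951718-76951747, minus strand) 158 bases before the Ppat start, and both overlap exons annotated to Paics. The matched windows of the deoxynucleotide genes held none of these 4 words. A match describes letters and does not show that a factor is bound.

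Genes that act around these routes were less uniform. Of 77 other nucleotide metabolism genes listed by function, 73 were in the table and 68 tested (the remaining 4 were not analysed here), of which 26 rose, 9 fell and 33 did not pass (median log2 change 0.34), beside 23.3% of all genes that rose and 24.6% that fell. The genes that supply folate cofactors for purine and thymidylate synthesis rose most often, 9 of 11 (median 1.78). Without them 17 of 57 rose and 9 fell.

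In the folate list Mthfd1l, a mitochondrial formate producer, had 2792 and 2715 scaled counts in MYC-PyMT, against 319.8 and 211 in Control-PyMT (log2 change 3.40, SE 0.24, limma adjusted p = 1.08e-05). Mthfd2, a mitochondrial methylenetetrahydrofolate dehydrogenase, rose by 3.28, Slc19a1, the reduced folate carrier, by 2.98, and Shmt2, the mitochondrial serine hydroxymethyltransferase, by 2.56. Each of these, named for the size of its rise, had both MYC-PyMT libraries above both Control-PyMT libraries, an ordering found in 37.0% of all genes.

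Outside folate supply the largest rises were those of Slc29a2, an equilibrative nucleoside transporter, and Dnph1, which hydrolyses deoxynucleoside monophosphates. Slc29a2 had 639 and 587 scaled counts in MYC-PyMT, against 100.1 and 150.3 in Control-PyMT (log2 change 2.31, SE 0.28, limma adjusted p = 0.000160). Dnph1 had 1440.1 and 1404 in MYC-PyMT, against 302 and 288 in Control-PyMT (2.27, SE 0.21, limma adjusted p = 3.76e-05). Mono- and diphosphate kinases outside the 34 rose in 5 of 13 cases and fell in 2, purine salvage and interconversion genes rose in 3 of 11 and fell in 1, and nucleotidases rose in 3 of 6. Pyrimidine and deoxynucleoside salvage genes rose in 1 of 9 cases and fell in 3, nucleoside transporters rose in 1 of 6 and fell in 2, and base breakdown genes rose in 1 of 5 and fell in 1. Of dNTP breakdown and pool cleaning genes 2 of 5 rose, and of the PRPP-associated genes 1 of 2.

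The 9 falls included genes of salvage, of breakdown and of kinases and transporters. In the salvage list Tk2 and Dguok, the mitochondrial deoxynucleoside kinases, had log2 changes of -0.75 and -0.58 (limma adjusted p = 0.0123 and 0.0482) and were named after their values were seen. The Tk2 call ended when MYC-PyMT replicate 2 was left out (limma adjusted p = 0.123) and when Control-PyMT replicate 1 was (0.0672). The Dguok call ended whichever library was left out (log2 change from -0.66 to -0.50). It also ended with the replicate number as a block (limma adjusted p = 0.0789), no variance trend (0.0717), a pseudocount of 5 (0.0509) and no level filter (0.0531). Upp2, a uridine phosphorylase, had 11.1 and 27.5 scaled counts in MYC-PyMT, against 85.1 and 87.5 in Control-PyMT (log2 change -2.24, SE 0.46, limma adjusted p = 0.00318). Ampd3, an AMP deaminase, had 180.1 and 199 in MYC-PyMT, against 782 and 613 in Control-PyMT (-1.87, SE 0.24, limma adjusted p = 0.000249). Cmpk2, a mitochondrial kinase induced by interferon, had 648 and 479 in MYC-PyMT, against 1699 and 1921 in Control-PyMT (-1.70, SE 0.22, limma adjusted p = 0.000237). Cmpk2 thus fell where Cmpk1 did not pass. Dpyd, which starts pyrimidine breakdown, had 383 and 143 in MYC-PyMT, against 719 and 754 in Control-PyMT, with a wide gap between the MYC-PyMT libraries (-1.65, SE 0.39, limma adjusted p = 0.00657). Nme5 and the transporter gene Slc29a4 fell by log2 changes of -1.15 and -1.06. Slc29a3, a transporter gene named here to complete the 9, had a log2 change of -0.76 (limma adjusted p = 0.0482). The Slc29a3 call ended with no level filter (0.0562), no variance trend (0.138) and the length trend removed (0.152), among other settings. The Dpyd log2 change was -2.36 without MYC-PyMT replicate 1 and -0.94 without MYC-PyMT replicate 2, and that of Upp2 was -1.62 and -2.85, all still called. The calls of Upp2, Dpyd and Nme5 ended when Control-PyMT replicate 1 was left out (limma adjusted p = 0.0724, 0.129 and 0.0573) and when Control-PyMT replicate 2 was (0.0783, 0.143 and 0.0749). That of Slc29a4 ended when Control-PyMT replicate 2 was left out (log2 change -0.58, limma adjusted p = 0.155) and with no variance trend (0.0603). The count of falls was 3 with Control-PyMT replicate 1 left out and 4 with Control-PyMT replicate 2 left out.

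**Figure D4:**
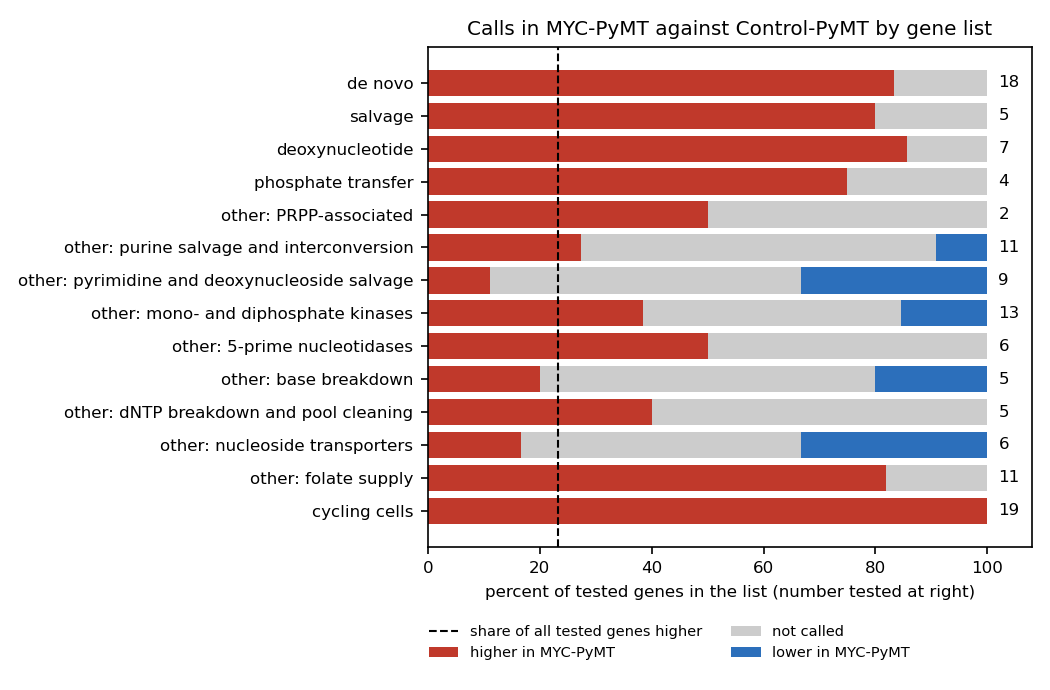
Bars give, for each gene list, the percent of tested genes called higher, not called and called lower in MYC-PyMT, with the number tested at right, and the dashed line marks the 23.3% of all tested genes called higher. The 4 groups of the 34 genes and the folate list reach 75% or more and the cycling markers 100%, and the other lists hold larger shares of genes not called or lower.

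Markers of cycling cells moved with the 34 genes. All 19 listed rose, with a median log2 change of 1.56, and their summed level was 100404 and 98364 scaled counts in MYC-PyMT, against 39681 and 33533 in Control-PyMT. Mki67, a marker of cells in cycle and the highest of them in scaled counts, which are not divided by length, had 17223 and 16139 in MYC-PyMT, against 6982 and 6221 in Control-PyMT (log2 change 1.34). The cycling markers ran from 0.99 for Pcna, the replication clamp, to 2.37 for Ccne1, a change that none of the 34 reached. Among the 34, the S phase enzymes Rrm1, Rrm2, Tyms and Tk1 had log2 changes of 1.10, 1.44, 1.14 and 1.31. Dut and Dtymk of the thymidylate branch had 2.11 and 1.31. In 11 of the 34 genes, Cad, Aprt, Dut, Dctpp1, Gart, Nme1, Nme2, Uck2, Impdh2, Ppat and Ctps, the change was above the median of the cycling markers. The median of the 34 themselves, 1.30, was below it. The part of cell cycling in these rises was not tested.

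Markers of other cells in the tumour did not move in 1 direction. Macrophage markers summed to 13049.6 and 15176 in MYC-PyMT, against 12818 and 14655 in Control-PyMT, with 1 of 6 higher and 1 lower. Fibroblast markers summed to 9941 and 12869 in MYC-PyMT, against 9350.1 and 14031 in Control-PyMT, with 1 of 5 higher and 2 lower. Endothelial markers rose in 1 of 4 cases, summing to 2511 and 2741 in MYC-PyMT, against 1523 and 2067 in Control-PyMT. General leukocyte markers, with 1 of 4 lower, summed to 2679 and 3083 in MYC-PyMT, against 3486 and 3826 in Control-PyMT. S100a8 itself was at 1564 and 2524 in MYC-PyMT and 2338 and 639 in Control-PyMT, and the 4 neutrophil markers measured summed to 2634 and 3838 in MYC-PyMT, against 3149.8 and 1023 in Control-PyMT, with 1 of 4 higher. Adipocyte markers, with 1 of 5 higher and 1 lower, summed to 3444 and 2920 in MYC-PyMT, against 658 and 2094 in Control-PyMT. Fabp4 made up most of this, and the other 4 summed to 505 and 376 in MYC-PyMT, against 208 and 893 in Control-PyMT. B cell markers, with 1 of 3 tested lower, summed to 34.2 and 23.1 in MYC-PyMT, against 44.0 and 70.5 in Control-PyMT. No listed marker measured was at 0 in both libraries of a group, and the part of these cells in the changes of the 34 genes was not tested.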

How the data were processed

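Poly(A)-selected, strand-specific libraries were made from 500 ng of tumour RNA with 8 PCR cycles, per the labels' protocols, with RNA integrity numbers of 3.3 to 9.6 that are not tied to samples. Per the submitters' processing notes, HISAT2, the builds mm10 and GRCm38.p5 and DESeq2 were used. No source used here names the counting tool, whether it used strand, or the gene annotation. As deposited, values are scaled counts, treated here as a signal and not as whole counts, with 1 column a library. Every value in the 4 columns was a whole multiple of that column's smallest value above 0, within 0.001 of a multiple. Replicates differed by more than counting noise (chi-square per degree of freedom 43.6 in MYC-PyMT and 59.5 in Control-PyMT).

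Tests used limma 3.58.1 (R 4.3.3) on log2(value + 1) with a variance trend, two-sided, over genes at 10 or more in at least 2 libraries, all 4 libraries and no covariate. The procedure was tested on simulated data. The 34 genes, their groups, the other lists and the tests were chosen with earlier results of these data known. All 34 were named, with the 6 largest rises and the 6 largest falls called among other nucleotide genes at a mean of 50 or more in the higher group, and the most abundant marker of a list where one is named. Coordinates and lengths came from GENCODE mouse release 21 (GRCm38), which held all 34 genes. Lengths are those of the longest APPRIS principal transcript, or else of the longest transcript. Alternatives were 2 pseudocounts, 2 filters, 2 scalings, no variance trend, a replicate block, leaving out each library, removing the length trend and another threshold.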

Additional observations from a re-analysis of the deposited data

How the results depend on the processing

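Across 14 alternatives the count of the 34 genes that rose was 26 to 28 and none fell. Of 476 log2 changes of single genes under these alternatives, 468 kept their direction and their side of the threshold and 8, all of Prps2 and Paics, lost the call. Leaving out 1 library in turn gave 26 to 28 rises among the 34, 13 to 15 among the de novo genes, 4 among salvage, 6 among deoxynucleotide and 3 among phosphate transfer genes. Other nucleotide genes then rose in 21 to 25 cases and fell in 3 to 8, against 26 and 9. The count of falls was lowest without Control-PyMT replicate 1 (3) and without Control-PyMT replicate 2 (4), where 1 library stands for its group and is assumed to vary like the other. With no variance trend 24 rose and 6 fell, and at adjusted p under 0.10, 28 rose and 13 fell. Upper-quartile scaling moved the median of all genes to -0.12. The median of the 34 was then 1.20, and 25 other nucleotide genes rose and 13 fell. The median of the 34 ran from 1.19 to 1.37. Taken over all genes, library pairs with the same number did not deviate together (correlation across genes -0.09). Skeletal muscle, fibroblast, macrophage, endothelial and general leukocyte marker sums were higher in replicate 2 of both groups, and cycling marker sums were lower. Adipocyte, neutrophil, epithelial, T and NK cell and B cell sums did not move the same way in both groups. What the replicate number stands for cannot be told from this correlation. With that number as a replicate block 28 of the 34 rose, and 26 other nucleotide genes rose and 8 fell. edgeR and DESeq2, planned as alternatives, were not run.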
